A study of Mus musculus with 4 samples.

Results

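Endothelial cells line the vessels that grow into the neural tube from a plexus around it, and 10 genes that mark them were described in bulk RNA of E12.5 mouse neural tubes. The genes were given by symbol: Pecam1, Cdh5, Kdr, Flt1, Tie1, Tek, Esam, Cldn5, Emcn and Slc2a1. They are 10 of the 24971 genes left when the deposited counts per RefSeq accession were summed by symbol. Of the 10, 6 had counts and the other 4 were listed at 0 in every library. The 4 libraries comprised 2 labelled Lbx1Δ/Δ and 2 labelled wild type (WT), numbered 1 and 2 in each group, all of the C57BL/6 background. Each library was a pool of neural tubes of the same genotype from the same litter. The labels do not state which part of Lbx1 was deleted in the mutant allele, and no other allele or treatment is given. Neural tube pools of this kind hold neural cells together with vessels, blood and surrounding mesenchyme.

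Vessels enter the neural tube in answer to vascular endothelial growth factor (VEGF), which is made by neural cells and read by the receptor tyrosine kinase Kdr (VEGFR2). Flt1 (VEGFR1) binds the same ligand more tightly and signals weakly, and its soluble form acts as a decoy. Tie1 and Tek form the angiopoietin receptor system, while Cdh5, Pecam1 and Esam hold endothelial cells together. Vessels of the central nervous system then acquire barrier properties under Wnt signals from neural cells, among them the tight junction protein Cldn5 and the glucose transporter Slc2a1.

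Flt1 was the member for which the deposited counts kept separate forms apart, so the place where its forms part is shown here from the GENCODE M21 transcripts (GRCm38, chromosome 5, minus strand). The full-length form (NM_010228, 1333 coding codons) and the short, soluble form (NM_001363135, 688 coding codons) share 13 exons and 1972 coding bases. The full-length form then continues in the following exon and the short form reads on into intron 13. The last 60 shared bases are in lower case and the first 60 bases of each form's own coding sequence are in capitals.
Flt1 full-length form, capitals chr5:147634464-147634523: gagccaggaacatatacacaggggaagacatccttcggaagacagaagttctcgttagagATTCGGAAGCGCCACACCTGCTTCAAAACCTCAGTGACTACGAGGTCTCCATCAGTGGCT
Flt1 short form, capitals chr5:147639165-147639224: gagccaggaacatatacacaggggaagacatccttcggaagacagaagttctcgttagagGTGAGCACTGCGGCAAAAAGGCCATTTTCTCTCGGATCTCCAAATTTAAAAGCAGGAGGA
The capitals of the short form lie directly after the shared exon in the genome. All 4066 bases that it did not share with the full-length form lay in that intron, so reads from unspliced full-length RNA could be counted there too. Reads deposited on each accession were taken as they stand, and the treatment of reads from the shared exons is not given in the sources used here.

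Total counts were 17250143 and 16853984 in Lbx1Δ/Δ libraries 1 and 2, and 20579803 and 16948717 in WT libraries 1 and 2, and levels are given as CPM, the counts scaled to these totals. With 0 counts, a gene whose reads were all counted could still be at up to 0.174 and 0.178 CPM in Lbx1Δ/Δ libraries 1 and 2. In WT libraries 1 and 2 it could be at up to 0.146 and 0.177 CPM (3 counts, counting error only). These limits do not bound genes with several accessions, whose shared reads may not have been counted. The targeted gene Lbx1 did not check the labels, since its counts were 1946 and 6520 in the libraries labelled Lbx1Δ/Δ and 819 and 1379 in WT. Every direction below is therefore between libraries as labelled. The samples were pools, and fewer cells of a type cannot be told apart from less RNA per cell. The labels do not say that a number marks a shared litter or day, yet libraries of the same number resembled each other, so each gene is given by genotype and by number.

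Pecam1, Tek, Esam and Emcn were listed at 0 counts in all 4 libraries. Pecam1 is an adhesion molecule of endothelium, platelets and leukocytes, Tek the angiopoietin receptor Tie2, Esam a junction protein and Emcn a surface sialomucin. They had 4, 3, 2 and 2 accessions in the files. In the GENCODE M21 models of these accessions, the largest number of bases that any Pecam1 accession held alone was 129, and for Tek it was 48. The 2 Esam accessions pointed to the same GENCODE transcript, whereas an Emcn accession held 1231 bases alone and was still at 0. Among all genes, 38.9% of the 7924 with several accessions were listed at 0 in all libraries, against 30.2% of the 17047 with 1 accession. These zeros are given as listed, with no fold change, and no statement on expression is drawn from them.

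The defining endothelial genes with counts were all well above the floor in every library. Cdh5, Kdr and Tie1 were each detected with at least 1341 counts in each library, whichever genotype or number it carried. Cdh5, the cadherin of endothelial adherens junctions, was at 174 and 164 CPM in Lbx1Δ/Δ libraries 1 and 2, and at 193 and 166 CPM in WT libraries 1 and 2. The WT library numbered 1 was the highest and the genotypes overlapped. Kdr, the main VEGF receptor, was at 125 and 128 CPM in Lbx1Δ/Δ libraries 1 and 2, and at 146 and 135 CPM in WT libraries 1 and 2. Here the Lbx1Δ/Δ libraries were both below the WT libraries. All of the Kdr counts lay on NM_010612 and none on its second accession. Tie1, an orphan receptor that modulates Tek, was at 87.1 and 89.6 CPM in Lbx1Δ/Δ libraries 1 and 2, inside the range of the WT libraries 1 and 2 at 94.0 and 79.1 CPM. Flt1 was at 39.6 and 34.8 CPM in Lbx1Δ/Δ libraries 1 and 2, and at 39.5 and 42.8 CPM in WT libraries 1 and 2. Its groups overlapped through the number 1 libraries, which were almost equal.

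The barrier-related members were spread more by number than by genotype. Cldn5, the main claudin of brain endothelial tight junctions, was at 51.5 and 87.2 CPM in Lbx1Δ/Δ libraries 1 and 2, and at 56.0 and 69.7 CPM in WT libraries 1 and 2. The libraries numbered 2 were the higher in each genotype, and the Lbx1Δ/Δ libraries lay on either side of the WT libraries. Slc2a1 (Glut1), the glucose transporter of barrier endothelium that neuroepithelium and red cells also use, was at 238 and 258 CPM in Lbx1Δ/Δ libraries 1 and 2, and at 222 and 245 CPM in WT libraries 1 and 2. It too was higher in number 2 in each genotype, by a smaller step, and its genotypes overlapped.

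**Figure D1:**
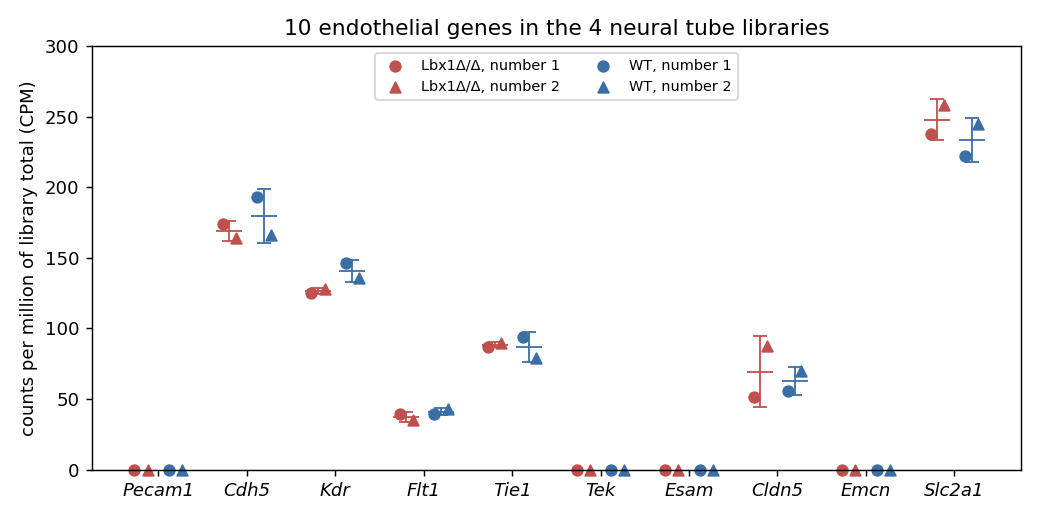
Level of each of the 10 endothelial genes in CPM of the library total, with circles for number 1, triangles for number 2, and bars for the mean ± SD of 2 libraries. Cldn5 shows the widest spread, 51.5 to 87.2 CPM in the Lbx1Δ/Δ libraries, and Pecam1, Tek, Esam and Emcn sit at 0.

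Per length, Slc2a1 was the highest member in every library, and Cdh5 and Cldn5 changed places with number. With the length of the matching GENCODE transcript, Cdh5 was at 43.6 and 41.0 CPM per kilobase in Lbx1Δ/Δ libraries 1 and 2, and at 48.3 and 41.6 CPM per kilobase in WT libraries 1 and 2. Kdr and Tie1 lay close together, with Kdr at 21.1 and 21.6 and Tie1 at 21.3 and 21.9 CPM per kilobase in Lbx1Δ/Δ libraries 1 and 2. In WT libraries 1 and 2 Kdr was at 24.7 and 22.8 and Tie1 at 23.0 and 19.3 CPM per kilobase, so the order of these receptors was not the same in every library. Kdr was divided by all 5924 bases of its counted accession, since its second accession had no GENCODE match. If reads shared by its accessions were left out, its level per length is too low, and its place beside Tie1 holds only for the counts as listed. Cldn5, a short transcript of 1 exon, was below Cdh5 in number 1 and above it in number 2, at 36.4 and 61.6 CPM per kilobase in Lbx1Δ/Δ libraries 1 and 2, and at 39.6 and 49.2 CPM per kilobase in WT libraries 1 and 2. Slc2a1 was at 72.9 and 79.2 CPM per kilobase in Lbx1Δ/Δ libraries 1 and 2, and at 68.2 and 75.0 CPM per kilobase in WT libraries 1 and 2. Over the bases each Flt1 form held alone, the full-length form was at 5.17 and 4.69 CPM per kilobase in Lbx1Δ/Δ libraries 1 and 2, and at 4.44 and 4.97 CPM per kilobase in WT libraries 1 and 2. The short form was at 3.81 and 3.18 CPM per kilobase in Lbx1Δ/Δ libraries 1 and 2, and at 4.61 and 4.82 CPM per kilobase in WT libraries 1 and 2, which put it below the full-length form in every library other than WT library 1.

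Genotype made no difference to these genes that passed the test. None of the 6 tested members passed edgeR's quasi-likelihood test at an adjusted p of 0.05, and of 10757 genes tested 0 passed (0.0%), with 55 at an unadjusted p below 0.05. DESeq2 and limma-voom called 0 genes as well, and an unadjusted p below 0.05 was reached by 33 and 61 genes. All of these fits held genotype alone, so differences by number stayed in the spread of each. With number as a block, edgeR called 92 genes (0.855%), and 0 of the members. Each p-value reflects how far apart these pools lay, which also differed by number. The fitted log2 difference of Lbx1Δ/Δ over WT was −0.17 for Kdr (SE 0.15), −0.16 for Flt1 (SE 0.20) and −0.10 for Cdh5 (SE 0.16). It was 0.02 for Tie1 (SE 0.17), 0.07 for Slc2a1 (SE 0.15) and 0.13 for Cldn5 (SE 0.30). The edgeR adjusted p was 0.9998 for each of them.

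By number, the signs of the genotype differences were shared in only some members. Kdr was lower in Lbx1Δ/Δ within number 1 (log2 −0.23) and within number 2 (log2 −0.08), and Cdh5 was likewise lower by −0.15 and −0.02. Slc2a1 was higher within each number, by 0.10 and 0.08. Tie1 and Cldn5 changed sign, with −0.11 and −0.12 within number 1 and 0.18 and 0.32 within number 2. Flt1 differed by 0.00 within number 1 and −0.30 within number 2. Of the 6 members, only Kdr had genotypes that did not overlap in CPM, while 20.6% of all tested genes had that property and 9.31% had it in the lower direction. Summed, the 10 genes reached 715 and 761 CPM in Lbx1Δ/Δ libraries 1 and 2, against 751 and 738 CPM in WT libraries 1 and 2, a ratio of the group means of 0.992.

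**Figure D2:**
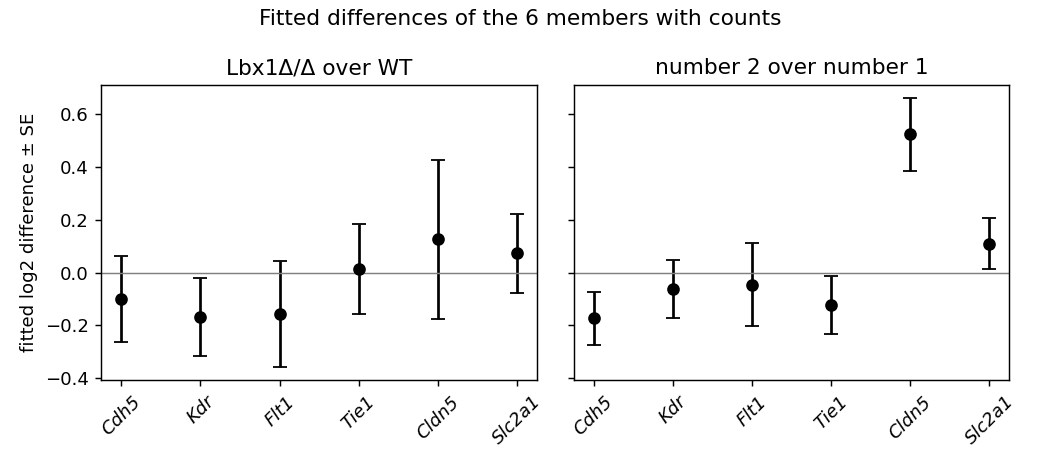
Fitted log2 difference ± SE (edgeR) of the 6 members with counts, for Lbx1Δ/Δ over WT on the left and for number 2 over number 1 on the right, 2 libraries on each side of each comparison. The left panel lies between −0.17 and 0.13, and in the right panel Cldn5 stands at 0.52.

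The counts of Flt1 divided differently between its forms in the libraries of the 2 genotypes, a difference that did not pass the test. The short form took 39.1% of the Flt1 counts in Lbx1Δ/Δ library 1 (exact 95% interval 35.4% to 42.9%, 683 counts) and 37.1% in Lbx1Δ/Δ library 2 (33.2% to 41.2%, 587 counts). It took 47.5% in WT library 1 (44.0% to 51.0%, 813 counts) and 45.8% in WT library 2 (42.1% to 49.5%, 725 counts). The share averaged 38.1% ± 1.38 in Lbx1Δ/Δ and 46.6% ± 1.19 in WT (SD, n = 2 each), and the difference of Lbx1Δ/Δ minus WT was −8.39 percentage points within number 1 and −8.66 within number 2. The genotypes did not overlap, and the intervals cover counting error only.

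The short form had levels that did not overlap between the genotypes, and the full-length form had levels that did. Among all tested genes, 20.6% had levels that did not overlap, 9.31% in the lower direction, and the share over single accessions was not taken. Counts of the short form were 267 and 218 in Lbx1Δ/Δ libraries 1 and 2 and 386 and 332 in WT libraries 1 and 2, or 15.5 and 12.9 CPM in Lbx1Δ/Δ against 18.8 and 19.6 CPM in WT. The full-length form had 416 and 369 counts in Lbx1Δ/Δ libraries 1 and 2 and 427 and 393 in WT libraries 1 and 2, or 24.1 and 21.9 CPM in Lbx1Δ/Δ against 20.7 and 23.2 CPM in WT. Fitted per accession, the log2 difference was −0.44 for the short form (edgeR unadjusted p = 0.133, adjusted p = 0.99996) and 0.06 for the full-length form. A test of unequal change between accessions of the same gene, chosen after these values were seen, gave Flt1 an unadjusted p of 0.241 and an adjusted p of 0.997 over the 362 genes it could test (edgeR diffSpliceDGE), with 0 genes called (0.0%) and 5 at an unadjusted p below 0.05. Among 196 genes with at least 100 counts on each of their leading pair of accessions, 30.1% had shares that did not overlap between the genotypes, and 4.59% had them apart by 5 percentage points or more, as Flt1 did.

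**Figure D3:**
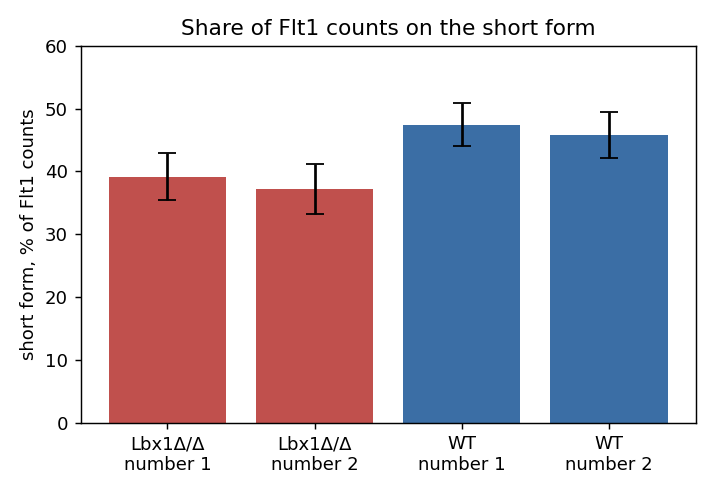
Share of Flt1 counts that lay on the short form, in percent, for each library, with exact 95% binomial intervals as error bars. The Lbx1Δ/Δ libraries stand at 39.1% and 37.1% and the WT libraries at 47.5% and 45.8%.

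The libraries differed far more by replicate number than by genotype, and of the members only Cldn5 was called between numbers. Over all genes 2739 of 10757 (25.5%) passed an adjusted p of 0.05 between numbers, 13.3% higher and 12.2% lower in number 2, in an edgeR fit on number alone. Of the 6 tested members, 1 passed, a share near that background. Cldn5 was at 87.2 and 69.7 CPM in the libraries numbered 2 (Lbx1Δ/Δ, then WT), against 51.5 and 56.0 CPM in those numbered 1, with a fitted log2 difference of 0.52 (SE 0.14, edgeR adjusted p = 0.0200). The ratio of number 2 to number 1 was 0.76 on the log2 scale within Lbx1Δ/Δ and 0.31 within WT. The call was lost without Lbx1Δ/Δ library 1 (adjusted p = 0.223), without Lbx1Δ/Δ library 2 (adjusted p = 0.0932) or without WT library 1 (adjusted p = 0.190), where the log2 difference was 0.47, 0.37 and 0.57. These losses are seen against 6 and 1 genes called in all without the libraries numbered 1 of Lbx1Δ/Δ and WT, and 2387 without Lbx1Δ/Δ library 2.

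The general endothelial members did not pass the test between numbers. The log2 difference of number 2 over number 1 was −0.17 for Cdh5 (SE 0.10, edgeR adjusted p = 0.236), −0.12 for Tie1 (SE 0.11), −0.06 for Kdr (SE 0.11) and −0.05 for Flt1 (SE 0.16). Slc2a1 had 0.11 (SE 0.10, edgeR adjusted p = 0.445). Cdh5 was lower and Slc2a1 higher in number 2 in each genotype without overlap, and 66.0% of all tested genes had numbers that did not overlap, 31.9% in the lower and 34.1% in the higher direction. Relative to the summed counts of Cdh5, Kdr, Flt1 and Tie1, Cldn5 came to 21.0% in Lbx1Δ/Δ and 16.5% in WT in number 2, against 12.1% in Lbx1Δ/Δ and 11.9% in WT in number 1. Slc2a1 came to 62.0% and 57.8% of that sum in Lbx1Δ/Δ and WT of number 2, against 55.8% and 47.0% in number 1. Whether Cldn5 moved more than the general endothelial members was not tested.

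Promoter sequence is shown for Cldn5 and for a pair of members that did not pass, Tie1 and Flt1, as the 250 bases before the RefSeq start (GRCm38.p6). Of the 10 members, 7 had a promoter in the RefSeq table. The motif searched was GGAAG on either strand (CTTCC), an ETS-type core, since ETS factors such as Erg and Fli1 drive many endothelial genes. It is in capitals.
Cldn5, chr16:18776597-18776846, plus strand: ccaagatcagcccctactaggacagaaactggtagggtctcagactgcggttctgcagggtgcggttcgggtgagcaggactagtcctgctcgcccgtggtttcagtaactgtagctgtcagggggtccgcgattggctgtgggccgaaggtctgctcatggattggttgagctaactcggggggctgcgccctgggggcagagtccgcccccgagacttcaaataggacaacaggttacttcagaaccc
Tie1, chr4:118489850-118490099, minus strand: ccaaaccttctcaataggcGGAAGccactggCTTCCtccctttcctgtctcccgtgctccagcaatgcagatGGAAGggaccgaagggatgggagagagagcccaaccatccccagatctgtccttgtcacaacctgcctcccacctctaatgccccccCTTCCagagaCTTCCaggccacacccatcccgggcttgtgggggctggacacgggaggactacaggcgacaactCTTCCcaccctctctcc
Flt1, chr5:147726012-147726261, minus strand: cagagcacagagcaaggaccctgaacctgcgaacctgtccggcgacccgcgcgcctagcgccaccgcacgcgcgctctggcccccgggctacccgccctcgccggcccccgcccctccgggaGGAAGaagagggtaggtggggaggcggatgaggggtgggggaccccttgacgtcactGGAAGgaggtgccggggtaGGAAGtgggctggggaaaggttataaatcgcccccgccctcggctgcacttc
These letters stood 6 times in the Tie1 window, 3 times in that of Flt1 and 0 times in that of Cldn5. Among the members 4 of 7 windows held them, against 64.1% of 32851 promoter windows of the same length. The windows of Kdr and Emcn held 1 and 2 matches, and those of Slc2a1 and Tek held 0.

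Other genes of barrier endothelium were examined beside Cldn5, from a list of 16 of which 8 were tested. Between numbers, 4 were called higher in number 2 and 1 lower, against 13.3% and 12.2% of all tested genes, with a median log2 difference of 0.37 against 0.00 for all tested genes. Slc38a5, an amino acid transporter, was at 15.5 and 11.6 CPM in Lbx1Δ/Δ and WT of number 2, against 6.03 and 6.37 CPM in number 1 (log2 1.11, SE 0.23, edgeR adjusted p = 0.00726). Mfsd2a, a lipid transporter that restrains transcytosis at the barrier, was at 55.5 and 45.9 CPM in number 2, against 29.8 and 33.1 CPM in number 1 (log2 0.67, edgeR adjusted p = 0.0122). Abcb1a, the P-glycoprotein efflux pump, and Slc7a5, a large neutral amino acid transporter, also rose (log2 0.88 and 0.36, edgeR adjusted p = 0.0247 and 0.0268). Slc16a1, a monocarboxylate transporter that red cell precursors and other cells also use, fell (log2 −0.92, edgeR adjusted p = 0.00449). Abcg2, counted on 2 accessions, was at 4.57 and 3.48 CPM in Lbx1Δ/Δ and WT of number 2, against 5.97 and 6.75 CPM in number 1. It did not pass (log2 −0.68, edgeR adjusted p = 0.106). By fitted difference, 6 of the 8 were higher in number 2, and 2, Slc16a1 and Abcg2, were lower. Between genotypes 0 of the 8 passed and the median was 0.10. Neuronal genes were higher and erythroid and mesenchyme genes lower in the same libraries numbered 2, with the values given at the end.

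The wider endothelial list held 1 gene called between numbers, where 25.5% of all tested genes were called and 12.2% were called lower. Of its 18 genes, 13 were tested, and the gene called was Plvap, the protein of fenestral diaphragms that barrier vessels lose. Plvap was at 37.4 and 48.7 CPM in Lbx1Δ/Δ and WT of number 2, against 67.9 and 75.9 CPM in number 1 (log2 −0.76, SE 0.16, edgeR adjusted p = 0.00764). The list median was −0.06 between numbers and −0.05 between genotypes, where 0 were called. Cd93, a surface receptor of endothelium, and Ramp2, the adrenomedullin co-receptor, had genotype differences of −0.16 and 0.18, and that of Clec14a, an endothelial lectin, was −0.28 (SE 0.20). Without Lbx1Δ/Δ library 1, and again without WT library 1, 0 genes of this list and 0 of the barrier list were called (edgeR adjusted p of 0.105 to 0.289 for Plvap and the 5 barrier genes that had passed), and Abcb1a also missed the threshold without Lbx1Δ/Δ library 2 (adjusted p = 0.0792).

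**Figure D4:**
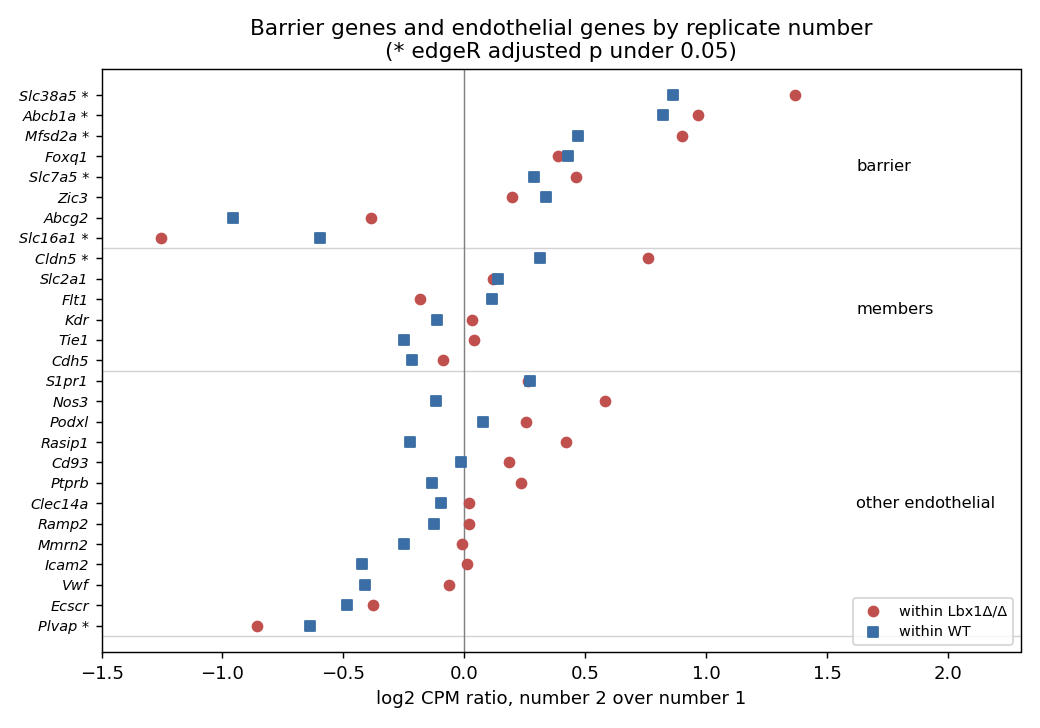
Log2 ratio of CPM in number 2 over number 1 for the tested barrier genes, members and other endothelial genes, with circles within Lbx1Δ/Δ, squares within WT, and an asterisk where the edgeR adjusted p was under 0.05. Cldn5, Slc38a5, Abcb1a, Mfsd2a and Slc7a5 lie to the right in each genotype and Plvap and Slc16a1 to the left.

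Ligands and partner receptors of the members were measured in part. Vegfa, Nrp1, Nrp2 and Angpt1, all with several accessions, were listed at 0 in all libraries. Between numbers, 12.2% of all tested genes were called lower and 25.5% in either direction. Of the 3 tested genes in the list of VEGF ligands and co-receptors, 2 were called lower in number 2, Vegfc, the ligand of Flt4, and Flt4 itself, the lymphatic and early endothelial VEGF receptor (log2 −0.67 and −0.51, edgeR adjusted p = 0.0413 and 0.0408). Flt4 missed the threshold with library totals as the scale (adjusted p = 0.0505) and without WT library 2 (adjusted p = 0.0757), and Vegfc without Lbx1Δ/Δ library 2 (adjusted p = 0.152). Angpt2, the Tek ligand made by sprouting endothelium, was at 4.52 and 6.29 CPM in Lbx1Δ/Δ libraries 1 and 2, and at 10.9 and 7.02 CPM in WT libraries 1 and 2. Its Lbx1Δ/Δ libraries were both lower (log2 −0.74, SE 0.38), with an edgeR unadjusted p of 0.109 and an adjusted p of 0.9998. Among all tested genes, 9.31% had Lbx1Δ/Δ libraries both below the WT libraries. The Angpt2 difference was −0.37 without WT library 1 and between −0.53 and −1.03 without each of the other libraries. Angptl2, an angiopoietin-like secreted protein, was called lower in number 2 (log2 −0.43, edgeR adjusted p = 0.0381), at 68.9 and 84.0 CPM in Lbx1Δ/Δ and WT of number 2 against 95.1 and 108 CPM in number 1. Of the fits that left out 1 library each, only that without WT library 2 kept this call, and the others gave an edgeR adjusted p of 0.112 to 0.341. Among the endothelial transcription factors 8 of 14 were tested and 0 passed between genotypes. Fli1 and Foxo1 were called lower in number 2 (log2 −0.92 and −0.56, edgeR adjusted p = 0.0112 and 0.0237), beside the same 12.2% of all tested genes. Fli1 and Foxo1 are also expressed in mesenchyme and blood. These 4 calls were lost without Lbx1Δ/Δ library 1 and without WT library 1 (adjusted p of 0.0985 to 0.313).

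Markers of other cells moved with number in the same libraries, where 13.3% of all tested genes were called higher and 12.2% lower. All 6 tested neuronal genes of a list of 8 were called higher in number 2, and the list summed to 10364 and 9032 CPM in Lbx1Δ/Δ and WT of number 2, against 5806 and 5299 CPM in number 1. All 9 tested erythroid genes of a list of 10 were called lower, with sums of 2655 and 2838 CPM in number 2 against 6026 and 8402 CPM in number 1, and Alas2 was listed at 0. Of 9 tested mesenchyme genes of a list of 10, 4 were called lower, with sums of 4314 and 4859 CPM in number 2 against 4609 and 6480 CPM in number 1. Of 6 tested platelet genes of a list of 8, 3 were called lower and 1 higher, with sums of 47.2 and 51.9 CPM in number 2 against 76.2 and 83.9 CPM in number 1. In the macrophage list of 12 genes, 9 were tested and 1, Mrc1, was called higher, with sums of 148 and 148 CPM in number 2 against 113 and 136 CPM in number 1. Aif1 and Trem2 were listed at 0 there. Of the 7 tested neural progenitor genes of a list of 8, 1, Fabp7, was called higher, with sums of 5955 and 5707 CPM in number 2 against 5349 and 5086 CPM in number 1, and Pax6 was listed at 0. Without WT library 1, 0 of the genes in all lists were called between numbers, and without Lbx1Δ/Δ library 1 only 2 erythroid genes were, against 53 of 127 with all libraries. The part of these cells in the differences of Cldn5 and the barrier genes was not tested.

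The genes whose levels followed the mean of the 6 members most closely over the 4 libraries were Ykt6, Niban2, Ythdc1, Prxl2b and Ube2q1, among 7484 other genes at a mean of 5 CPM or more. Their root mean square distances from the member mean were 0.008 to 0.015 on the centred log2 scale. The member mean itself ran from −0.07 in Lbx1Δ/Δ library 1 to 0.04 in Lbx1Δ/Δ library 2, so this likeness is that of genes with nearly level values. Of the members, Slc2a1 lay nearest to that mean (0.075) and Cldn5 farthest (0.262), and 9.59% and 66.7% of the other genes were at least as near.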

How the data were processed

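RNA was measured in 4 pools of E12.5 neural tubes, 2 labelled Lbx1Δ/Δ and 2 labelled WT. The deposited files hold a raw count for each RefSeq accession, not normalized, as their whole numbers show. RNA came from a column kit and libraries from the NEBNext Ultra RNA kit, per the labels' protocols. The submitters' processing notes name TopHat2 2.1.1, featureCounts, edgeR and the build mm9. Which annotation and strand setting were used, and what was done with reads that fit several transcripts, is not given in the sources used here. Genes with several accessions (among them Kdr, Flt1, Rgs5, Abcg2 and Pgf) may therefore be counted in part.

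Each file held 41411 accessions. A RefSeq table of GRCm38.p6 named 41218 and GENCODE M21 named 97, and the other 96 were kept as their own genes. Counts were summed by symbol, which gave 24971 genes. CPM are relative to the library total. Total counts were 16853984 to 20579803. edgeR 4.0.16 (R 4.3.3) with filterByExpr, TMM scaling, glmQLFit and glmQLFTest compared genotype, and separately replicate number, two-sided, with Benjamini-Hochberg adjustment over all 10757 genes tested at 0.05. An SE is the log2 difference over the root of F. Accession usage was tested with diffSpliceDGE. The tests were tried on simulated counts. Coordinates and sequences are from GRCm38, another build than mm9, and are not used with the counts. Lengths are those of GENCODE transcripts.

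The members and gene lists were chosen with earlier results of these data known. The text names all members, up to 4 genes per other list with the smallest p between genotypes, any gene of the endothelial, transcription factor, VEGF, angiopoietin and barrier lists, and the 5 genes nearest to the member mean. Genes named outside this rule, such as Mrc1, Rgs5, Vtn, Fzd4 and Lrp5, were picked with their values in view. The alternatives tried were RLE, upper-quartile and library-total scaling, no low-count filter, DESeq2 1.42.0, limma-voom (limma 3.58.1), only the leading accession of a gene, a replicate block, and each library left out in turn. The labels do not say how many litters the 2 pools of a genotype came from, and p-values measure only the spread between these samples.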

Additional observations from a re-analysis of the deposited data

How the results depend on the processing

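No gene was called between genotypes under any scaling, filter, tool or left-out library that was run, with edgeR, DESeq2 and limma-voom, and 23 to 296 genes had an unadjusted p below 0.05. The count was 0 to 0 genes without each library in turn. With the replicate number as a block 92 genes (0.855%) were called, 0 of the members among them. The labels do not pair the numbers, although deviations of same-numbered libraries correlated at 0.764 over 9191 genes. Between numbers, 1 to 3917 genes were called when each library was left out in turn, with 1 without WT library 1 and 6 without Lbx1Δ/Δ library 1. Small genotype differences changed sign, and the cause was not tested. Over the fits without each library, the genotype difference was −0.21 to 0.032 for Cdh5 (highest without WT library 1), −0.11 to 0.165 for Tie1 (lowest without WT library 2) and −0.29 to 0.46 for Cldn5 (lowest without Lbx1Δ/Δ library 2, and −0.0046 without WT library 1). Flt1 had 0.055 with only its leading accession, the full-length form. Between numbers, Kdr ran over −0.16 to 0.044 (highest without WT library 1) and Flt1 over −0.22 to 0.11 (highest without Lbx1Δ/Δ library 2). Of 353 single-gene alternatives 305 kept direction and side of the threshold. The Flt1 form difference kept its direction in the alternatives run, and under the replicate block it had an edgeR adjusted p of 0.719, while the short form alone stood at log2 −0.44 (unadjusted p = 0.0131, adjusted p = 0.176). The ratio of summed levels was 0.960 without Slc2a1, 0.982 with TMM scaling, and 0.961 to 1.02 without each library.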

Other observations

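Pericytes and smooth muscle cells wrap the vessels that the members line, and their listed genes went opposite ways between numbers. Of 12 genes 8 were tested, 2 were called higher and 4 lower in number 2, against 13.3% and 12.2% of all tested genes, and 0 were called between genotypes. Vtn (vitronectin), made by pericytes of the nervous system and by other cells, was at 173 and 142 CPM in Lbx1Δ/Δ and WT of number 2, against 90.0 and 86.9 CPM in number 1 (log2 0.82, edgeR adjusted p = 0.0012). Rgs5, a pericyte gene counted on 2 accessions, was at 122 and 127 CPM in number 2, against 79.1 and 85.7 CPM in number 1 (log2 0.58, edgeR adjusted p = 0.00382). The contractile genes Acta2, Tagln and Des, which skeletal muscle or mesenchyme also express at this stage, fell (log2 −1.46, −0.74 and −1.61, edgeR adjusted p = 0.00287, 0.0117 and 0.0196). Notch3, a receptor of mural cells that neural progenitors also express, was the other gene called lower, at 296 and 241 CPM in Lbx1Δ/Δ and WT of number 2, against 367 and 346 CPM in number 1 (log2 −0.43, edgeR adjusted p = 0.0227). Cspg4 and Anpep had log2 differences of −0.06 and −0.03. Pdgfrb, Kcnj8, Abcc9 and Myh11 were listed at 0.

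In the list of Wnt7, Gpr124 and Norrin signalling to vessels, 7 of 9 genes were tested and 5 were called lower in number 2, against 12.2% of all tested genes, with a median log2 difference of −0.58. Adgra2 (Gpr124), a co-receptor for Wnt7 that endothelium, pericytes and mesenchyme express, was at 106 and 106 CPM in Lbx1Δ/Δ and WT of number 2, against 178 and 245 CPM in number 1 (log2 −1.02, edgeR adjusted p = 0.00124). Reck, its partner, Fzd4, the Norrin receptor, and Lrp5 and Lrp6 were the others called, with edgeR adjusted p-values of 0.0214, 0.0179, 0.000926 and 0.0259. Mesenchyme genes summed to 4314 and 4859 CPM in Lbx1Δ/Δ and WT of number 2, against 4609 and 6480 CPM in number 1, and their part in these differences was not tested. Lyve1, a gene of lymphatic endothelium and of macrophages, was at 11.1 and 15.5 CPM in number 2, against 5.04 and 5.44 CPM in number 1 (log2 1.32, edgeR adjusted p = 0.00449). Of 9 tested macrophage genes, only Mrc1 was called higher in the same libraries, and 2 were fitted lower. Any part of macrophages in the Lyve1 difference was not tested. Lyve1 was the 1 gene called of 4 tested venous and lymphatic genes of a list of 6. Between numbers 12.2% of all tested genes were called lower and 25.5% in either direction, and the small counts in the next lists are not set apart from that. None of the 8 tested arterial genes of a list of 9 was called between numbers, where 2 of the 6 tested basement membrane genes of a list of 8 and 2 of the 8 tested hypoxia and glucose uptake genes of a list of 10 were called lower. Between genotypes 0 genes of these lists were called. Without Lbx1Δ/Δ library 1, and again without WT library 1, 0 of the pericyte and Wnt7 list genes passed between numbers, with edgeR adjusted p-values of 0.0663 and 0.0953 for Adgra2, 0.0812 and 0.113 for Vtn, 0.122 and 0.118 for Rgs5 and 0.107 and 0.126 for Lyve1.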
